A study of Mus musculus with 12 samples.

Results

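The V1 sector is the soluble, ATP-hydrolysing part of the vacuolar ATPase (V-ATPase), the proton pump of lysosomes and endosomes. Its transcripts were followed here through 8 genes, Atp6v1a, Atp6v1b2, Atp6v1c1, Atp6v1d, Atp6v1e1, Atp6v1f, Atp6v1g1 and Atp6v1h, each found by its gene symbol as 1 row among the 54446 genes listed for every library. RNA sequencing had been done on 12 libraries of mouse embryonic stem (ES) cells, 2 from each of 6 groups. The groups are the line KH and the line DNMT3ABKO, each at 0 h (labelled control) and after 72 h and 144 h of INK128, an inhibitor of the growth kinase mTOR (mTORi). KH is the wild type, and DNMT3ABKO is a knockout of Dnmt3a and Dnmt3b, the enzymes of de novo DNA methylation. The labels write E14 before both line names, whereas the study's methods call the wild type KH2 and grow both lines on a feeder layer of mitotically inactivated fibroblasts. Each genotype is represented by 1 line, so genotype and line cannot be told apart. No untreated culture was sampled at 72 h or 144 h, so the inhibitor and the time in culture cannot be told apart either. The labels do not say that replicates came from separate cultures, and the study states only in general that its experiments were independently repeated. The p-values measure only the spread between these libraries.

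V-ATPase couples ATP hydrolysis in V1 to proton transport through the membrane-embedded V0 sector. In V1, subunits A and B alternate around a head, with A carrying the catalytic sites and B a non-catalytic nucleotide-binding site. Subunits D and F form the rotor shaft inside that head, and subunits E and G form the outer stalks, or stators, that hold it in place. Subunit C joins the stators to V0 and leaves when the 2 sectors come apart, and subunit H lies at the same interface and keeps detached V1 from hydrolysing ATP. The assembled pump acidifies lysosomes, and together with the Ragulator complex and the Rag GTPases it takes part in the amino acid signal that brings mTORC1 to the lysosome. The factors TFEB and TFE3, which mTORC1 holds in the cytoplasm, are known to bind E-box elements of V-ATPase and lysosomal genes.

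Levels here are shares of the RNA in a library, not amounts per cell. By 144 h 5 of the 8 subunit transcripts had risen in DNMT3ABKO cells, where 57.6% of all genes tested were called and 31.4% called higher. In KH cells 2 had risen, where 51.3% were called and 27.4% called higher. Atp6v1c1, Atp6v1d and Atp6v1e1 rose more in DNMT3ABKO cells than in KH cells in the test of that difference, which called 8.59% of all genes. Atp6v1b2 and Atp6v1h rose in both lines by 144 h. The KH call of Atp6v1h was lost under several other settings and when certain single libraries were left out. So were the calls of Atp6v1d and Atp6v1e1 in the test of the difference. Atp6v1f passed the test in no comparison. The changes were modest, with ratios of group means between 0.80 and 1.48 over the 144 h comparisons.

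Values are TPM, a level per transcript length that is scaled to the same total in each library, so that genes can be set beside each other. Each library summed to 1000000 TPM, and no row for the added spike-in RNA was listed. A level is therefore a share of the RNA in its library, not an amount in a cell. With spike-in scaling the study reported a global decrease of transcription under mTORi in wild-type and Dnmt3a/b knockout cells. A rise or fall given here is one of the share alone. The unit does not keep the number of reads, and the depth of the libraries is unknown. Between 15178 and 15811 genes reached 1 TPM in a library. The line labels were checked first. Dnmt3b read 142 to 258 TPM in KH libraries and 12.7 to 27.5 TPM in DNMT3ABKO libraries, and Dnmt3a read 54.7 to 144 TPM against 7.35 to 21.9 TPM. The sum of 12 ES cell markers was 4816 to 5154 TPM at 0 h and 7371 to 7499 TPM at 144 h in KH cells, and 4784 to 4896 TPM and 7315 to 7353 TPM in DNMT3ABKO cells, with none at 0 in both libraries of a group. By limma 10 of 12 of these rose by 144 h in KH cells, and in DNMT3ABKO cells 8 rose and 1 fell. Of all genes tested 27.4% and 31.4% were called higher in these comparisons. The sum of 25 fibroblast markers was lower at each later time in both lines. It was 3607 to 4053 TPM in KH cells at 0 h, 1751 to 1792 TPM at 72 h and 695 to 798 TPM at 144 h. In DNMT3ABKO cells it was 3847 to 4333 TPM, 1405 to 1499 TPM and 573 to 586 TPM at the same times, and no fibroblast marker was at 0 in both libraries of any group. By limma 22 of 24 tested fibroblast markers fell by 144 h in KH cells and 23 of 24 in DNMT3ABKO cells. Of all 15727 genes tested 3762 and 4117 were called lower in these comparisons. Fn1 alone made up much of the sum at 144 h, at 526 and 440.2 TPM in KH cells and 292 and 283 TPM in DNMT3ABKO cells. Between the lines at 144 h 5 of 24 fibroblast markers were called, beside 26.5% of all genes. Of these 4 were higher and 1 lower in DNMT3ABKO cells, so the sums do not give the direction of most markers. The sum of 16 macrophage markers also fell, from 366 to 400.3 TPM at 0 h to 41.2 to 42.3 TPM at 144 h in KH cells and from 315 to 346 TPM to 59.4 to 62.3 TPM in DNMT3ABKO cells, with Aif1 and C1qb at 0 in both KH libraries at 144 h and Aif1 in both DNMT3ABKO libraries. The macrophage sum was thus higher in DNMT3ABKO than in KH cells at 144 h and lower at 72 h (183 to 187 against 275 to 283 TPM). These marker sums moved with every comparison over time, and their part in the changes of the subunits was not tested. In such bulk libraries fewer cells of a type and less RNA per cell cannot be told apart. The DNMT3ABKO replicates at 0 h differed most from each other. Where a call of a member was lost without 1 library, that library is named. The calls of genes outside the members were not examined with libraries left out.

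All 8 genes are protein coding and are placed on the mm10 genome. The catalytic subunit Atp6v1a (ENSMUSG00000052459.13) spans chr16:44085402-44139705 on the minus strand, and Atp6v1b2 (ENSMUSG00000006273.14) spans chr8:69088646-69113711 on the plus strand. The rotor genes are Atp6v1d (ENSMUSG00000021114.9), at chr12:78840725-78861638 on the minus strand, and Atp6v1f (ENSMUSG00000004285.12), at chr6:29467718-29470512 on the plus strand. The stator genes are Atp6v1e1 (ENSMUSG00000019210.10), at chr6:120794305-120822793 on the minus strand, and Atp6v1g1 (ENSMUSG00000039105.6), at chr4:63544772-63550750 on the plus strand. Atp6v1c1 (ENSMUSG00000022295.8) lies at chr15:38661933-38692446 and Atp6v1h (ENSMUSG00000033793.12) at chr1:5070018-5162529, both on the plus strand. In the GENCODE M21 annotation their merged exons cover from 1063 bases (Atp6v1f, in 4 exons) to 9746 bases (Atp6v1h, in 14 exons). Antisense genes overlap the ends of Atp6v1b2 (Slc18a1, over 590 bases), Atp6v1h (Rgs20, over 268 bases) and Atp6v1e1 (Slc25a18, over 32 bases), and the miRNA gene Gm25193 lies inside Atp6v1e1. These neighbours read at most 3.27 TPM, and how the counting shared reads with them is not given in the sources used here.

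Promoter sequences were read from RefSeq (GRCm38.p6), from 250 bases before to 50 bases after the annotated start. A window was held for Atp6v1a, Atp6v1d, Atp6v1e1 and Atp6v1f, and for 10 of 13 V0 and accessory genes. The palindromic E-box CACGTG, the core of the element that TFEB and TFE3 bind, was searched on both strands and occurs in 2349 of 32851 windows (7.15%). Of the members it occurred in Atp6v1a, and of the V0 and accessory genes in Atp6v0b at 2 places, in Atp6v0d1 and in Atp6v0e. Each of these places also holds TCACGTG on at least 1 strand, a longer form that contains the E-box and is found in 3.77% of all windows. The other motif searched, TCATGTG, occurred in no window of a member and in 3.77% of all windows. The stretches are printed because they are where a known regulator of this pump could be compared between genes. Capitals mark the E-box, and each runs 5′ to 3′ on the strand of its gene.
Atp6v1a, chr16:44139373-44139402, minus strand, E-box from base -131 of the start: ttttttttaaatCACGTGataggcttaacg
Atp6v0b, chr4:117887348-117887377, minus strand, E-box from base -36: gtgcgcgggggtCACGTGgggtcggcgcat
Atp6v0b, chr4:117887330-117887359, minus strand, E-box from base -18: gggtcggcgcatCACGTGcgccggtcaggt
Atp6v0d1, chr8:105566050-105566079, minus strand, E-box from base -3: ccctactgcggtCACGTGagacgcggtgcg
Atp6v0e, chr17:26676387-26676416, plus strand, E-box from base 4: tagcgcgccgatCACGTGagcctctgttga
A match is a match of letters and not a shown binding site. Positions are counted from the RefSeq start, which for Atp6v1a lies inside the span chr16:44085402-44139705 given above. The printed stretch of Atp6v1a therefore lies within that span and not upstream of it. The 4 member windows held 10 (Atp6v1a), 21 (Atp6v1d), 16 (Atp6v1e1) and 17 (Atp6v1f) CpG dinucleotides, where the median of all windows is 7.

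The subunits are not present at equal transcript levels. Atp6v1b2 was the highest in every group, at 106 ± 3.31 TPM (mean ± SD, n = 2) in DNMT3ABKO cells at 0 h and 153 ± 0.233 TPM in KH cells at 144 h as its lowest and highest group means. Atp6v1d was the lowest in every group, between 24.9 ± 0.311 TPM and 36.4 ± 3.45 TPM. In KH cells at 0 h the order was Atp6v1b2 (116 TPM), Atp6v1f (86.8), Atp6v1e1 (81.6), Atp6v1g1 (76.1), Atp6v1a (57.6), Atp6v1h (55.6), Atp6v1c1 (50.1) and Atp6v1d (28.0), as group means. The replicates of Atp6v1e1 and Atp6v1g1 overlapped there, as did those of Atp6v1a and Atp6v1h and of Atp6v1h and Atp6v1c1. In DNMT3ABKO cells at 144 h the order was Atp6v1b2 (150.0 TPM), Atp6v1e1 (123), Atp6v1f (83.8), Atp6v1h (83.6), Atp6v1c1 (68.6), Atp6v1a (63.5), Atp6v1g1 (63.3) and Atp6v1d (36.4). There the replicates of Atp6v1f and Atp6v1h overlapped, and those of Atp6v1a and Atp6v1g1. The alternative isoforms of V1, which are known from kidney, testis, brain and other specialised tissues, were near 0. Atp6v1b1, Atp6v1c2 and Atp6v1e2 had group means of at most 0.217 TPM, Atp6v1g3 was listed at 0 in every library, and the neuronal form Atp6v1g2 had the highest group mean, 1.46 ± 0.402 TPM in KH cells at 72 h. None of these 5 genes reached the mean of 1 TPM over the libraries that a gene needed to be tested, whereas all 8 members did.

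**Figure D1:**
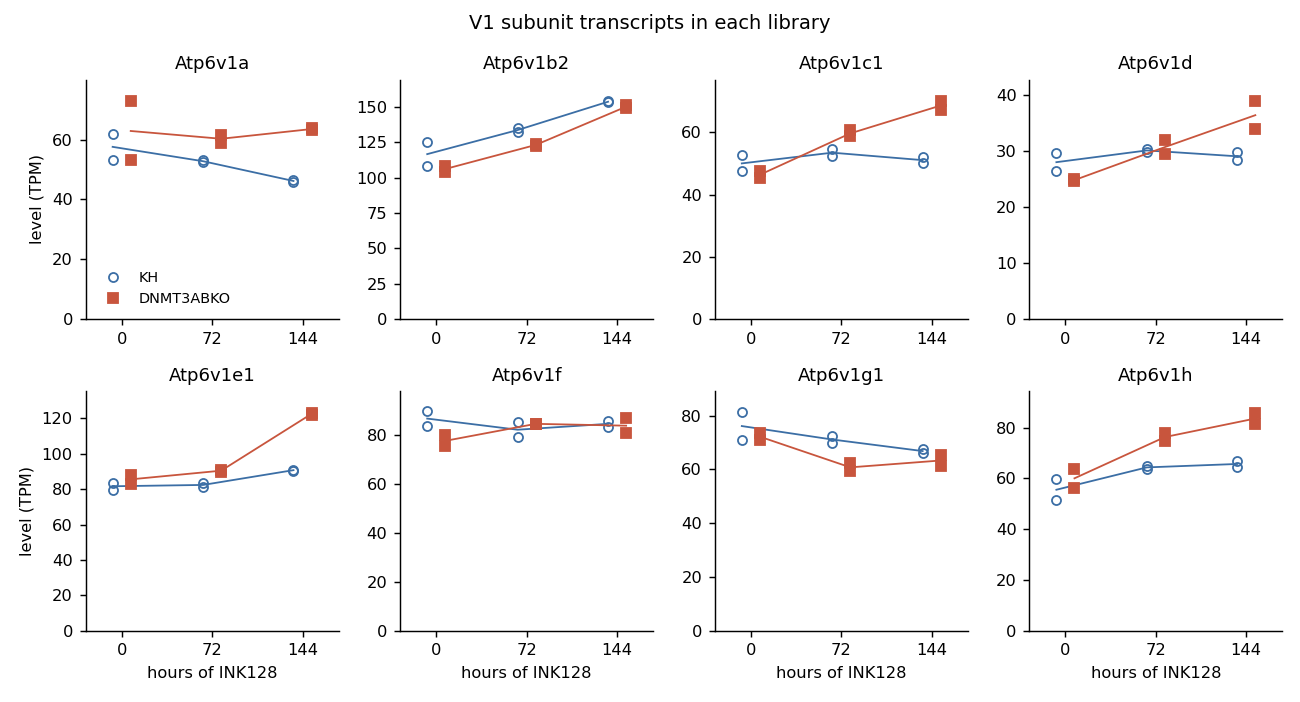
Level (TPM, linear axis from 0) of each V1 subunit at 0, 72 and 144 h of INK128. Open circles are KH libraries, filled squares DNMT3ABKO libraries, 2 in each group, and lines join the group means. Atp6v1a, Atp6v1c1, Atp6v1d, Atp6v1e1 and Atp6v1h end higher in DNMT3ABKO than in KH cells, and Atp6v1b2 ends at 149 to 154 TPM in both.

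The first comparison sets the later times under mTORi against 0 h in KH, the wild-type cells. Levels of Atp6v1b2, the nucleotide-binding partner of A, were 108 and 125 TPM at 0 h, 132 and 135 TPM at 72 h and 153 and 154 TPM at 144 h. The 3 times did not overlap. By limma on log2(TPM + 1), fitted to the 15727 genes tested, Atp6v1b2 rose by 0.20 ± 0.07 (log2 fold change ± SE) at 72 h, with a Benjamini-Hochberg adjusted p of 0.0412, and by 0.40 ± 0.07 at 144 h (adjusted p = 0.00108). Atp6v1h, the subunit that silences free V1, read 51.5 and 59.6 TPM at 0 h, 64.8 and 63.9 TPM at 72 h and 67.0 and 64.4 TPM at 144 h. Both later pairs lay above both libraries at 0 h. Its change was 0.21 ± 0.08 at 72 h (limma adjusted p = 0.0618) and 0.24 ± 0.08 at 144 h (adjusted p = 0.0348). Thus 1 of 8 subunits was called at 72 h, where 47.8% of all genes tested were called and 28.3% were called higher. At 144 h 2 of 8 were called, both higher, beside 51.3% of all genes called and 27.4% called higher. The members' median change was 0.05 at 72 h and 0.04 at 144 h, and that of all genes tested was 0.08 and 0.05. The members' median had no stable sign, since it was -0.04 at 72 h and 0.00 at 144 h after each library was rescaled by its median ratio to all libraries, and without KH 0 h replicate 1 it was 0.01 and -0.01 (0.11 and 0.12 without replicate 2).

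The other 6 subunits were not called in KH cells against 0 h. The catalytic Atp6v1a read 53.3 and 61.8 TPM at 0 h, 52.4 and 53.1 TPM at 72 h, and 45.8 and 46.5 TPM at 144 h. Its 144 h libraries were the lowest of the 6, with a log2 difference of -0.31 ± 0.12 against 0 h that missed the threshold (limma adjusted p = 0.0621). Atp6v1g1, a stator subunit, read 81.3 and 70.9 TPM at 0 h and 66.0 and 67.6 TPM at 144 h, a difference of -0.18 ± 0.08 (adjusted p = 0.0662). Its stator partner Atp6v1e1 went from 79.7 and 83.5 TPM to 90.4 and 91.0 TPM, a difference of 0.15 ± 0.06 (adjusted p = 0.0524). The rotor subunits Atp6v1d and Atp6v1f and the connecting subunit Atp6v1c1 had differences between -0.03 and 0.05 at 144 h, and their 0 h and 144 h libraries overlapped. From 72 h to 144 h limma called 0 of 8 subunits, beside 22.9% of all genes, and 2 had an unadjusted p under 0.05, Atp6v1b2 at 0.20 ± 0.07 (adjusted p = 0.0738) and Atp6v1e1 at 0.14 ± 0.06 (adjusted p = 0.121).

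Some KH calls changed with the scale and when single libraries were left out. After that rescaling the call at 72 h was Atp6v1a, lower at -0.22 (limma adjusted p = 0.0476), in place of Atp6v1b2 (0.10, adjusted p = 0.153), and at 144 h Atp6v1a was called lower (-0.35, adjusted p = 0.00508) beside the 2 higher subunits. The share of higher genes among all called genes moved from 59.1% to 47.6% at 72 h by that rescaling, and from 31.7% to 46.1% between 72 h and 144 h. When 1 library was left out, the other library of its group was assumed to vary as the remaining groups do. Atp6v1b2 at 72 h was not called without KH 0 h replicate 1 (adjusted p = 0.289), KH 72 h replicate 1 (0.103) or KH 72 h replicate 2 (0.176), and without KH 0 h replicate 2 Atp6v1h was called as well (0.31, adjusted p = 0.0224). The 144 h call of Atp6v1h was lost without KH 0 h replicate 1 (0.241), KH 144 h replicate 1 (0.155) or KH 144 h replicate 2 (0.0819), and without KH 0 h replicate 2 Atp6v1g1 was called lower (-0.28, adjusted p = 0.0173). Atp6v1b2 at 144 h was called without any of these 4 libraries. In a fit with only the 2 groups compared neither Atp6v1b2 at 72 h (adjusted p = 0.102) nor Atp6v1h at 144 h (0.0597) was called, and Atp6v1a was called lower at 144 h (-0.31, adjusted p = 0.0284). Array weights also called Atp6v1a (0.00984) and Atp6v1g1 (0.0484) lower at 144 h. With no filter on low values Atp6v1h was lost at 144 h (0.0653) and Atp6v1e1 was called higher (0.032).

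In DNMT3ABKO cells more of the subunits were called. Atp6v1c1, which joins the stators to V0, read 45.2 and 47.6 TPM at 0 h, 60.7 and 58.7 TPM at 72 h and 70.0 and 67.3 TPM at 144 h. Each time lay above the one before with no overlap. The change was 0.36 ± 0.07 at 72 h (limma adjusted p = 0.00173) and 0.55 ± 0.07 at 144 h (adjusted p = 8.45e-05). Atp6v1h read 56.4 and 63.7 TPM at 0 h, 77.7 and 74.9 TPM at 72 h and 85.6 and 81.6 TPM at 144 h. It too lay higher at each later time, by 0.34 ± 0.08 (adjusted p = 0.00618) and then 0.47 ± 0.08 (adjusted p = 0.000831) against 0 h. Atp6v1b2 read 104 and 108 TPM, then 124 and 122 TPM, then 149 and 151 TPM. Its rise, without overlap between times, was 0.21 ± 0.07 at 72 h (adjusted p = 0.0304) and 0.50 ± 0.07 at 144 h (adjusted p = 0.000214).

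The rotor and stator subunits split within their pairs. Of the rotor, Atp6v1d read 24.6 and 25.1 TPM at 0 h, 32.0 and 29.5 TPM at 72 h and 34.0 and 38.9 TPM at 144 h, and rose by 0.29 ± 0.09 (limma adjusted p = 0.0157) and 0.53 ± 0.09 (adjusted p = 0.000482). Its partner Atp6v1f read 75.4 and 79.9 TPM at 0 h, 84.7 and 84.5 TPM at 72 h and 87.0 and 80.7 TPM at 144 h. Both later pairs were above 0 h, but by 0.12 ± 0.07 and 0.11 ± 0.07, which were not called (adjusted p = 0.162 and 0.212). Of the stator, Atp6v1e1 read 82.9 and 88.1 TPM, then 89.8 and 91.0 TPM, then 123 and 122 TPM, so that the 144 h libraries stood apart from the other 4. Atp6v1e1 changed by 0.08 ± 0.06 at 72 h (adjusted p = 0.262) and rose by 0.52 ± 0.06 at 144 h (adjusted p = 3.87e-05). Its stator partner Atp6v1g1 read 73.5 and 70.8 TPM, then 62.2 and 59.3 TPM, then 61.3 and 65.3 TPM, below 0 h at both later times. Atp6v1g1 fell at 72 h, by -0.25 ± 0.08 (adjusted p = 0.0188), and was at -0.19 ± 0.08 at 144 h (adjusted p = 0.0563). The catalytic Atp6v1a read 53.0 and 72.7 TPM at 0 h, a wider gap than in any other group, and 59.0 to 63.8 TPM in the later 4 libraries, which lay between those values.

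Counted together, 5 of 8 subunits were called at 72 h (4 higher, Atp6v1g1 lower), beside 56.0% of all genes tested. At 144 h 5 of 8 were called, all higher, beside 57.6% of all genes called and 31.4% called higher. The members' median was 0.17 at 72 h and 0.48 at 144 h, where all genes tested had medians of 0.12 and 0.05. The 72 h count rests on the scale, since rescaling shifted the all-gene median by -0.11 and brought that of the members to 0.04. It left 3 calls, with Atp6v1b2 at 0.08 and Atp6v1d at 0.17 no longer called (limma adjusted p = 0.22 and 0.0728), 2 higher and 1 lower, and the share of higher genes among all called moved from 61.3% to 49.9%. The 72 h count was also 3 without DNMT3ABKO 72 h replicate 1, where Atp6v1b2 and Atp6v1d were lost (adjusted p = 0.123 and 0.112), and without replicate 2, where Atp6v1b2 and Atp6v1g1 were lost (0.0908 and 0.112). Without DNMT3ABKO 0 h replicate 1 Atp6v1b2 and Atp6v1g1 were lost (0.0835 and 0.0522) and Atp6v1a was called lower (-0.27, adjusted p = 0.0222). In a fit with only the 2 groups compared, Atp6v1c1 alone was called at 72 h. The 5 calls at 144 h were made in that fit, after rescaling and without any of the 4 libraries, and without DNMT3ABKO 0 h replicate 2 Atp6v1a was called higher as well (0.26, adjusted p = 0.0221).

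Between 72 h and 144 h in DNMT3ABKO cells 2 of 8 subunits were called, both higher, beside 27.3% of all genes called and 8.81% called higher. Atp6v1e1 rose by 0.44 ± 0.06 (limma adjusted p = 0.000395), which is most of its rise over the whole course, and Atp6v1b2 by 0.29 ± 0.07 (adjusted p = 0.0142). Atp6v1c1 and Atp6v1d were at 0.20 ± 0.07 and 0.24 ± 0.09 and missed the threshold (adjusted p = 0.0618 and 0.0697). The call of Atp6v1b2 was lost without any 1 of the 4 libraries (72 h replicates 1 and 2, 0.0665 and 0.0827; 144 h replicates 1 and 2, 0.0647 and 0.0803). Rescaling made 5 calls, all higher, with Atp6v1c1, Atp6v1d and Atp6v1h added at 0.27, 0.31 and 0.20, and moved the share of higher genes among all called from 32.3% to 47.8%.

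**Figure D2:**
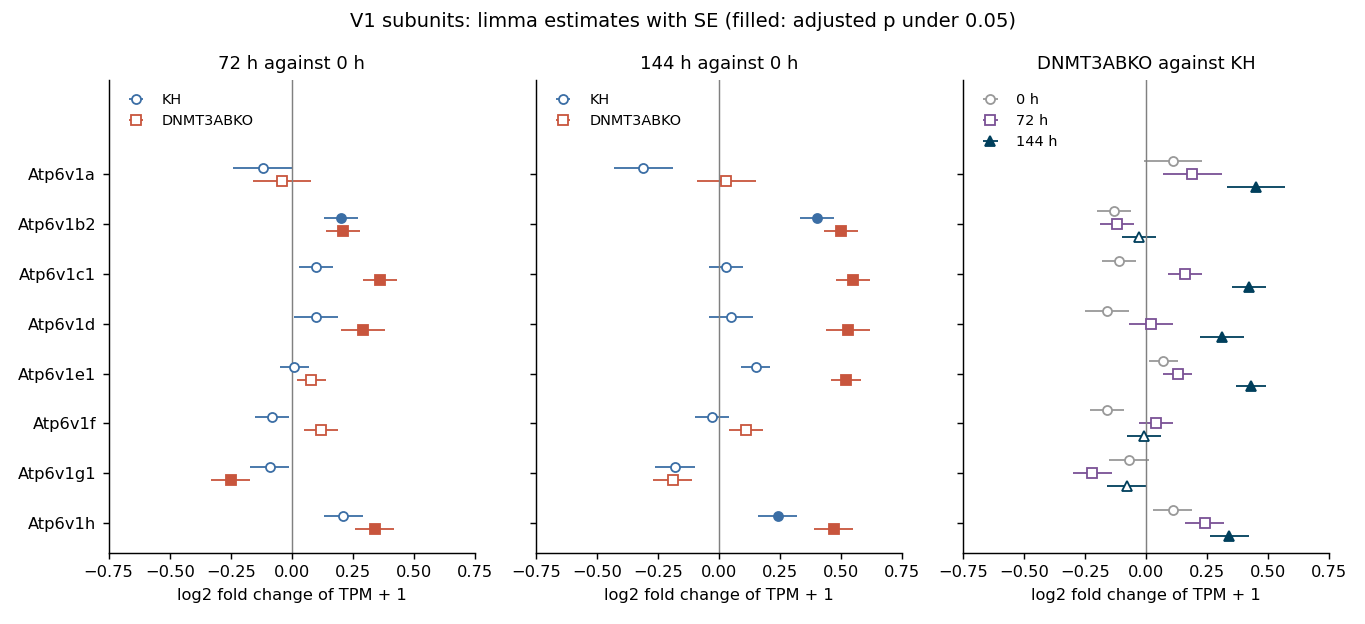
Log2 fold change of TPM + 1 (points) with its SE (bars) for each V1 subunit, from limma. Left and middle, the change after 72 h and 144 h of INK128 in KH (circles) and DNMT3ABKO cells (squares); right, DNMT3ABKO against KH at 0 h (circles), 72 h (squares) and 144 h (triangles). Filled symbols have an adjusted p under 0.05: 5 subunits at 144 h in DNMT3ABKO cells against 2 in KH cells, and 5 between the lines at 144 h. Of all genes tested 57.6%, 51.3% and 26.5% were called in these 3 comparisons.

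The lines were then compared at each time. At 0 h limma called 0 of 8 subunits, beside 9.06% of all genes tested, and 1 had an unadjusted p under 0.05, Atp6v1f, which was lower in DNMT3ABKO cells (-0.16 ± 0.07, adjusted p = 0.204). Without DNMT3ABKO 0 h replicate 1 Atp6v1a was called higher in DNMT3ABKO cells (0.34, adjusted p = 0.037). At 72 h 0 of 8 were called by limma, beside 19.3% of all genes, and 3 had an unadjusted p under 0.05. These were Atp6v1h (0.24 ± 0.08, adjusted p = 0.0725), Atp6v1e1 (0.13 ± 0.06, adjusted p = 0.141) and Atp6v1g1 (-0.22 ± 0.08, adjusted p = 0.0653). Rescaling called 3 at 72 h, Atp6v1h, Atp6v1e1 and Atp6v1c1, all higher in DNMT3ABKO cells, at 0.28, 0.17 and 0.19. At this time the macrophage markers were lower in DNMT3ABKO cells for 14 of 15 tested.

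At 144 h 5 of 8 subunits were called, all higher in DNMT3ABKO cells, beside 26.5% of all genes called and 11.0% called higher. Atp6v1e1 read 123 and 122 TPM in DNMT3ABKO cells against 90.4 and 91.0 TPM in KH cells, 35.2% more by group means and 0.43 ± 0.06 on the log2 scale (limma adjusted p = 0.000478). Atp6v1c1 read 70.0 and 67.3 TPM against 52.1 and 50.1 TPM, 34.3% more and 0.42 ± 0.07 (adjusted p = 0.00183). Neither pair of groups overlapped, and both calls were made without any 1 of the 4 libraries. Atp6v1a read 63.2 and 63.8 TPM against 45.8 and 46.5 TPM, a difference of 0.45 ± 0.12 (adjusted p = 0.0238), the widest estimate with the largest SE of the 8. Atp6v1h read 85.6 and 81.6 TPM against 67.0 and 64.4 TPM, 0.34 ± 0.08 (adjusted p = 0.0138), and Atp6v1d read 34.0 and 38.9 TPM against 28.4 and 29.8 TPM, 0.31 ± 0.09 (adjusted p = 0.0241). These 3 genes also did not overlap between lines, but their calls were lost when certain single libraries were left out. In those fits the estimates were 0.44 to 0.46 for Atp6v1a, 0.31 to 0.37 for Atp6v1h and 0.22 to 0.35 for Atp6v1d.

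The call of Atp6v1a at 144 h was lost without KH 144 h replicate 1 (limma adjusted p = 0.106) or 2 (0.0913), without DNMT3ABKO 144 h replicate 1 (0.0942) or 2 (0.102), and with no filter on low values (0.0625). That of Atp6v1h was lost without KH 144 h replicate 1 (0.0546) or 2 (0.0889) or DNMT3ABKO 144 h replicate 1 (0.0935). That of Atp6v1d was lost without KH 144 h replicate 1 (0.137) or 2 (0.0705) or DNMT3ABKO 144 h replicate 2 (0.187). The count was then 2 without either KH library and 3 without either DNMT3ABKO library. Atp6v1b2, Atp6v1f and Atp6v1g1 were at -0.03, -0.01 and -0.08 between the lines and were not called. Atp6v1b2 lies on chromosome 8, whose 791 tested genes had a median of -0.18 between the lines at 144 h, -0.12 at 72 h and -0.14 at 0 h, and the part of this shift in the value of Atp6v1b2 was not tested. Macrophage markers were called higher in DNMT3ABKO cells at 144 h for 9 of 15 tested, beside 11.0% of all genes. Lyz2 was at 8.85 and 9.05 TPM against 4.21 and 3.66 TPM in KH cells. The part of these markers in the subunits' difference was not tested.

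The difference between the lines in their response since 0 h was tested on its own. At 144 h it was called for 3 of 8 subunits, all rising more in DNMT3ABKO cells, beside 8.59% of all genes called and 4.89% called higher. It was 0.52 ± 0.10 for Atp6v1c1 (limma adjusted p = 0.00917), 0.48 ± 0.12 for Atp6v1d (adjusted p = 0.0394) and 0.37 ± 0.08 for Atp6v1e1 (adjusted p = 0.0222). Atp6v1a (0.34 ± 0.18, adjusted p = 0.288) and Atp6v1h (0.23 ± 0.12, adjusted p = 0.282) were higher in DNMT3ABKO cells at 144 h but were not called here. For Atp6v1b2 the difference in response was 0.10 ± 0.10 and for Atp6v1g1 it was -0.00 ± 0.11. The members' median was 0.29, and that of all genes 0.01. Without DNMT3ABKO 0 h replicate 1 the members' median was 0.13, and without KH 0 h replicate 2 it was 0.21. At 72 h limma called 0 of 8, beside 5.23% of all genes, and 1, Atp6v1c1, had an unadjusted p under 0.05 (0.26 ± 0.10, adjusted p = 0.189).

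Of the 3 subunits, Atp6v1c1 was called at 144 h under every setting tried and without any 1 of the 8 libraries. Atp6v1d was lost without KH 0 h replicate 2 (limma adjusted p = 0.119), KH 144 h replicate 1 (0.14) or 2 (0.0857) and DNMT3ABKO 144 h replicate 2 (0.154). Atp6v1e1 was lost without KH 0 h replicate 2 (0.0664), KH 144 h replicate 1 (0.0898) or 2 (0.0759) and DNMT3ABKO 144 h replicate 1 (0.0828) or 2 (0.082). Without DNMT3ABKO 0 h replicate 2, the library with the highest Atp6v1a, a larger response of Atp6v1a was called (0.56, adjusted p = 0.00631). In a fit with only the 4 groups concerned Atp6v1d and Atp6v1e1 were not called (adjusted p = 0.116 and 0.102), and with array weights or with no filter on low values Atp6v1d was not called (0.141 and 0.0526).

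The changes moved the proportions of the transcripts as well as their sum. The 8 members summed to 537 and 567 TPM in KH cells at 0 h, 570.3 and 569 TPM at 72 h and 586 and 589 TPM at 144 h. In DNMT3ABKO cells they summed to 515 and 557 TPM, 592 and 579 TPM, and 673 and 671 TPM. The sum at 144 h in DNMT3ABKO cells lay above all other libraries, also after rescaling, where its mean was 686 ± 11.7 TPM against 539 to 579 TPM in the other groups. No test was made on sums or ratios over the members. Atp6v1b2 and Atp6v1a encode subunits that occur in equal number in the pump. The level of Atp6v1b2 over that of Atp6v1a was 2.02 ± 0.003 in KH cells at 0 h, 2.53 ± 0.027 at 72 h and 3.32 ± 0.028 at 144 h. In DNMT3ABKO cells it was 1.72 ± 0.329, 2.04 ± 0.037 and 2.36 ± 0.008, so that the ratio was higher at each later time in both lines and lower in DNMT3ABKO than in KH cells at 72 h and 144 h. Subunits G and E pair in each stator, and the level of Atp6v1g1 over that of Atp6v1e1 went the other way. In KH cells it was 0.93 ± 0.121 at 0 h, 0.86 ± 0.037 at 72 h and 0.74 ± 0.009 at 144 h, and the libraries at 0 h and 72 h overlapped. In DNMT3ABKO cells it was 0.85 ± 0.058, 0.67 ± 0.029 and 0.52 ± 0.024, without overlap between times. A ratio within a library does not change with its scaling, and it says nothing of which of its genes changed.

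**Figure D3:**
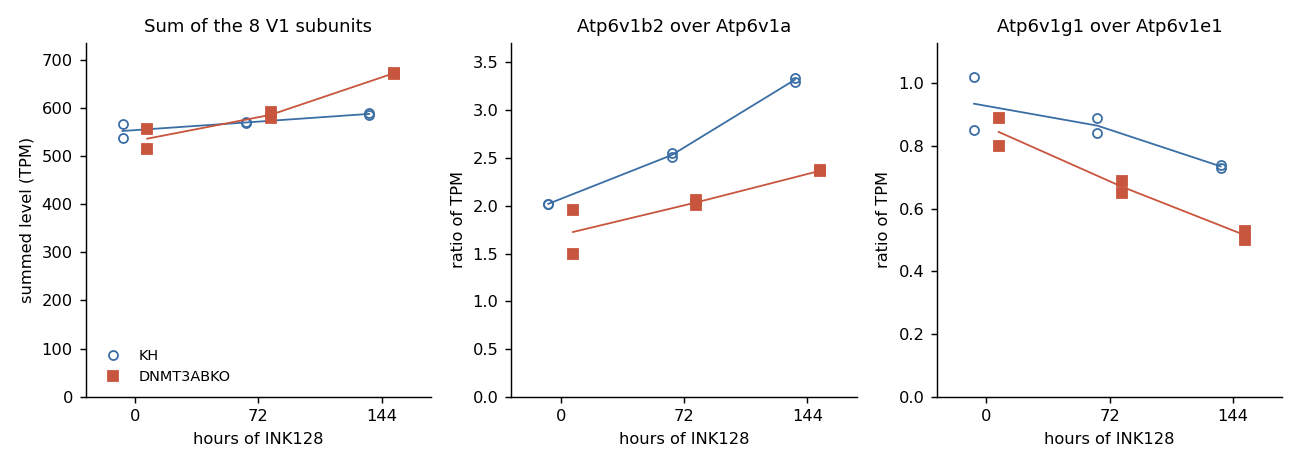
Left, summed level of the 8 V1 subunits (TPM) in each library by hours of INK128; middle, level of Atp6v1b2 over Atp6v1a; right, level of Atp6v1g1 over Atp6v1e1 (ratios of TPM; all axes linear from 0). Open circles are KH and filled squares DNMT3ABKO libraries, 2 in each group, and lines join the group means. The sum reaches 671 and 673 TPM in DNMT3ABKO cells at 144 h, and the middle ratio reaches 3.30 and 3.34 in KH cells.

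Over the 12 libraries the members did not vary as a block. The correlation of a member's log2(TPM + 1) with the mean of the other 7 was highest for Atp6v1c1 (Pearson r = 0.93) and was 0.88 for Atp6v1d, 0.86 for Atp6v1e1 and 0.84 for Atp6v1h. It was 0.51 for Atp6v1b2, 0.20 for Atp6v1a and 0.15 for Atp6v1f, and it was lowest for Atp6v1g1, at -0.74. The libraries share their groups, so these values describe the group pattern. The protein-coding genes outside the members with the highest correlation to the members' mean were Taf7, a subunit of the general transcription factor TFIID (r = 0.979), Copb2, a subunit of the COPI vesicle coat (0.977), Gm9049 (0.968), Gm9045 (0.967) and Tent5c, a poly(A) polymerase (0.966). Copb2 read 97.9 and 118 TPM in DNMT3ABKO cells at 0 h and 144 and 153 TPM at 144 h, against 104 and 115 TPM and 122 and 120.2 TPM in KH cells. Gm9045 and Gm9049 had nearly the same values in each library up to 72 h, and how reads were shared between them is not given in the sources used here.

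The membrane sector showed changes in both directions. Of 13 V0 and accessory genes 12 were tested, and Atp6v0d2, the isoform known from osteoclasts, was left out at no more than 0.492 TPM. At 144 h against 0 h, 8 of 12 were called in KH cells (3 higher, 5 lower), beside 51.3% of all genes, and 9 of 12 in DNMT3ABKO cells (6 higher, 3 lower), beside 57.6%. Their medians were -0.01 and 0.21, beside 0.05 for all genes in each line. The proton-carrying ring subunits and the base of the rotor were among those that rose in DNMT3ABKO cells. Atp6v0c, the ring's main subunit, read 160.3 and 166 TPM at 0 h and 226 and 213 TPM at 144 h in DNMT3ABKO cells, against 155 and 166 TPM and 159 and 158 TPM in KH cells. Only the DNMT3ABKO libraries at 144 h stood apart. Atp6v0c rose by 0.43 ± 0.06 there (limma adjusted p = 0.000163), was at -0.02 ± 0.06 in KH cells (adjusted p = 0.817), and differed between the lines in its 144 h response by 0.45 ± 0.08 (adjusted p = 0.00906). Atp6v0b, another ring subunit, rose by 0.66 ± 0.09 in DNMT3ABKO cells (adjusted p = 0.00012) and by 0.27 ± 0.09 in KH cells (adjusted p = 0.0247). Atp6v0d1, which joins the ring to the rotor, rose by 0.54 ± 0.10 in DNMT3ABKO cells (adjusted p = 0.000775), and its value in KH cells was 0.19 ± 0.10 (adjusted p = 0.122). For Atp6v0b and Atp6v0d1 the difference in response was not called (adjusted p = 0.0879 and 0.149). Of the 12 genes 2 were called in that test, 1 higher and 1 lower, beside 8.59% of all genes. The 12 differences ran from -0.89 to 0.47.

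The large a subunits, which line the path of the protons, went different ways. Tcirg1, the a3 form known from osteoclasts and macrophages, fell from 12.4 and 12.6 TPM to 4.91 and 5.15 TPM in KH cells by 144 h and from 13.7 and 11.6 TPM to 3.96 and 3.27 TPM in DNMT3ABKO cells, by -1.17 ± 0.12 and -1.56 ± 0.12 on the log2 scale (limma adjusted p = 2.96e-05 and 2.36e-06). Its fall went with that of the fibroblast and macrophage marker sums, and their part in it was not tested. Atp6v0a1 fell by less, -0.22 ± 0.07 (adjusted p = 0.0274) and -0.28 ± 0.07 (adjusted p = 0.00755). Atp6v0a4, the a4 form known from kidney, rose from group means of 1.92 to 4.87 TPM in KH cells and 1.16 to 3.87 TPM in DNMT3ABKO cells, by 1.02 ± 0.13 and 1.17 ± 0.13 (adjusted p = 0.000124 and 3.32e-05). Atp6v0a2 was at 11.6 to 14.5 TPM in every library and was not called at 144 h in either line. Of the remaining genes, Atp6ap2 rose in both lines (0.49 ± 0.12 and 0.79 ± 0.12), Atp6v0e2 fell in both (-0.54 ± 0.15 and -1.43 ± 0.15), Atp6v0e and Atp6ap1 fell in KH cells (-0.35 each, ± 0.11 and ± 0.12), and Rnasek rose in DNMT3ABKO cells (0.59 ± 0.22). Between the lines at 144 h 4 of 12 were called, beside 26.5% of all genes, Atp6v0c and Rnasek higher and Tcirg1 and Atp6v0e2 lower in DNMT3ABKO cells.

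**Figure D4:**
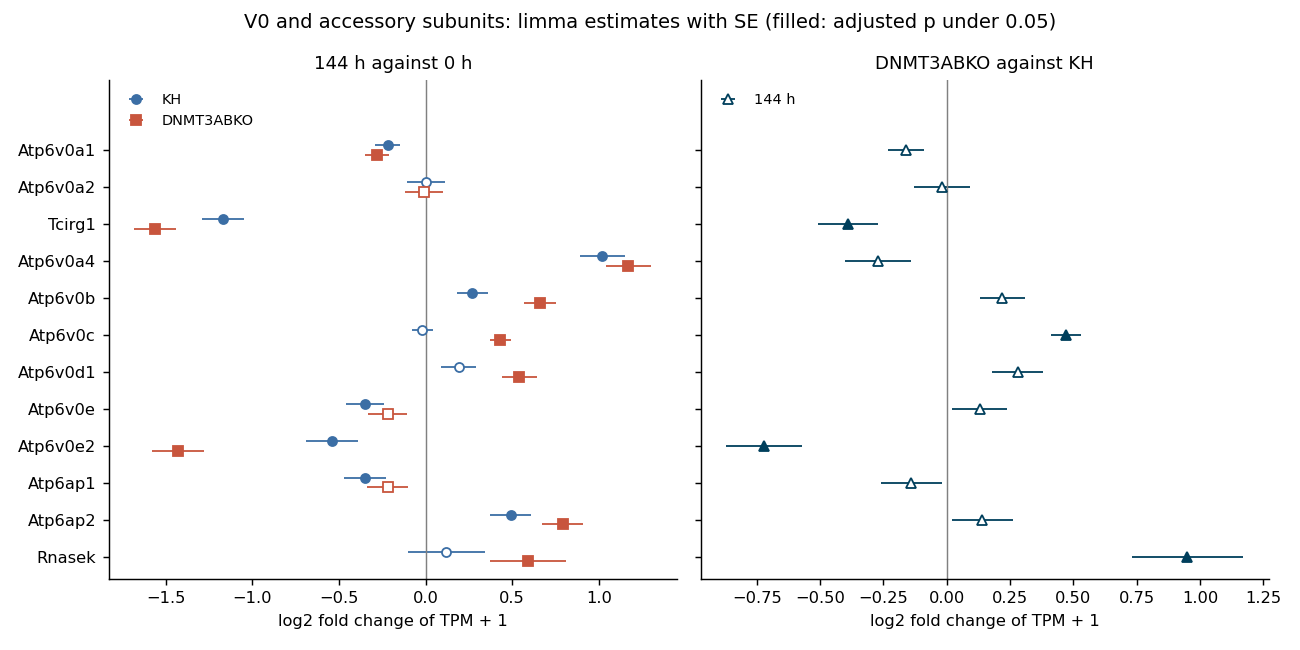
Log2 fold change of TPM + 1 (points) with its SE (bars) for the 12 tested V0 and accessory genes, from limma. Left, 144 h against 0 h in KH (circles) and DNMT3ABKO cells (squares); right, DNMT3ABKO against KH at 144 h. Filled symbols have an adjusted p under 0.05. Tcirg1 and Atp6v0e2 are lower and Atp6v0a4 and Atp6ap2 higher at 144 h in both lines.

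The remaining genes of the pathway were counted in the same comparisons. Of 9 factors that assemble the pump or bring its sectors together, 6 were called in KH cells at 72 h and 6 in DNMT3ABKO cells at 72 h, all higher, with medians of 0.30 and 0.45 beside 0.08 and 0.12 for all genes. Of all genes tested 47.8% and 56.0% were called in these comparisons, and 4447 and 5397 of 15727 were called higher. At 144 h it was 4 and 6, again all higher (medians of 0.28 and 0.42). Beside these 51.3% and 57.6% of all genes were called, and 27.4% and 31.4% were called higher. Ncoa7, a V-ATPase interactor, was highest at 72 h, with 0.99 in KH cells and 0.94 in DNMT3ABKO cells, and Dmxl1, a subunit of the RAVE-like complex that rejoins V1 and V0, was at 0.99 in both lines at 144 h. Between the lines at 144 h Ccdc115 alone was called, higher in DNMT3ABKO cells (0.26, limma adjusted p = 0.0169).

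Of 10 Ragulator and Rag genes, 4 were called in KH cells at 144 h (1 higher, 3 lower) and 7 in DNMT3ABKO cells (4 higher, 3 lower), where 51.3% and 57.6% of all genes were called. Lamtor4, a Ragulator subunit, fell by -0.94 in each line. Rragb, a Rag GTPase, rose in KH cells (0.54, limma adjusted p = 0.000672) and was lower in DNMT3ABKO than in KH cells at 144 h (-0.71, adjusted p = 0.000332). Of 7 MiT-family and folliculin-complex genes 6 were tested, and 4 were called in each line at 144 h (3 higher, 1 lower), beside the same shares of all genes. The gene that fell was Tfeb (-0.53 in KH cells and -0.51 in DNMT3ABKO cells), and the folliculin partner Fnip1 rose by 0.68 and 1.05. Tfeb was higher in DNMT3ABKO than in KH cells already at 0 h (0.52, adjusted p = 0.00224), and again at 144 h (0.53, adjusted p = 0.000687).

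Of 25 lysosomal hydrolases and membrane proteins, 18 were called at 144 h in KH cells (6 higher, 12 lower) and 17 in DNMT3ABKO cells (8 higher, 9 lower), with medians of -0.22 and 0.10, beside 51.3% and 57.6% of all genes called. The protease Ctsb was at -1.64 in KH cells and -1.65 in DNMT3ABKO cells, and the tetraspanin Cd63 was at -1.31 and -1.26, the lowest values of the list in each line. The cation channel Mcoln1 rose by 0.71 in KH cells and by 1.09 in DNMT3ABKO cells. Between the lines at 144 h 7 of 25 were called, near the 26.5% of all genes, with 5 higher and 2 lower in DNMT3ABKO cells. Glb1 (0.48) and Ctsd (0.37) were the highest of these and Naglu (-0.45) and Psap (-0.18) the lowest. The fall of Ctsb and Cd63 also went with the fibroblast and macrophage sums, whose part was not tested.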

How the data were processed

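RNA was sequenced from 12 libraries. Per the study's methods, cells were trypsinized and sorted, ERCC spike-in was added to total RNA and ribosomal RNA was depleted. Per the labels' processing notes the authors used cutadapt 2.4, STAR 2.7.3a and StringTie 2.0 on mm10. The deposited values are TPM per gene, 1 library per file, and an identifier listed more than once in a library was summed. A gene was kept when it averaged 1 TPM or more across the 12 libraries, and the 15727 kept were tested on log2(TPM + 1), a scale that understates changes of low genes, with limma 3.58.1 in R 4.3.3 (lmFit, eBayes with trend, 6 group coefficients, no covariate). A count test could not be used, because TPM are not counts. There were 11 contrasts, and a gene was called at a two-sided Benjamini-Hochberg adjusted p under 0.05 over all genes tested. The fit was tested on simulated data made for the KH comparison of 72 h with 0 h (15727 genes, 20 draws). There 4.5% of genes changed by 0.3 on the log2 scale were called, 32.4% of those changed by 0.5 and 82.3% of those changed by 1, and 4.58% of calls were unchanged genes. Only a small part of the genes was changed in each draw, whereas 47.8% were called in the data. The adjusted threshold was thus stricter in the simulation, and these rates are not the recovery rates of the comparisons reported here. Groups come from the labels, and no library was dropped.

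The members and gene lists were chosen with earlier results of these data known. Every member and every V0, accessory and alternative V1 gene was named, and of each other list at most the 2 called genes with the highest and the 2 with the lowest change in a comparison, plus the 5 genes most correlated with the members. Genes outside that rule, Lyz2, Aif1 and C1qb, were named after their values were seen, and so was Fn1. Other settings tried were median-ratio rescaling, no filter on low values, a pseudocount of 0.1 TPM, array weights, the replicate number as a block, a fit with only the groups compared, calls limited to changes of at least 0.5, and each library left out in turn.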

Additional observations from a re-analysis of the deposited data

Results flagged for a closer look

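The response to 144 h of INK128 differed between DNMT3ABKO and KH cells for 3 V1 subunits in limma's test of that difference over all genes. It called 8.59% of all genes, and 4.89% higher. The difference, on the log2 scale and positive where the rise was larger in DNMT3ABKO cells, was 0.52 for Atp6v1c1 (adjusted p = 0.00917), 0.48 for Atp6v1d (adjusted p = 0.0394) and 0.37 for Atp6v1e1 (adjusted p = 0.0222). Atp6v1c1 was called under every setting tried. Atp6v1d and Atp6v1e1 were lost with the replicate block (0.0751 and 0.0581) and in the fit with only the groups compared (0.116 and 0.102). Both were also lost when certain single libraries were left out. With 2 libraries per group no group could be examined for a stray library by itself.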

How the results depend on the processing

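The number of V1 subunits called in each comparison is given here under other settings, with the calls of the report in brackets. The cause of these changes was not tested, except that a minimum change removes calls by construction. With no filter the 72 h count in KH cells was 0 (1). Rescaling gave 2 for KH 144 h against 72 h (0), 3 for DNMT3ABKO 72 h against 0 h (5), 5 for DNMT3ABKO 144 h against 72 h (2) and 3 between lines at 72 h (0). The fit with only the groups compared gave 0 for KH 72 h (1), 3 for KH 144 h against 72 h (0), 1 for DNMT3ABKO 72 h (5), 5 between lines at 72 h (0) and 1 for the difference in the 144 h response (3). Array weights gave 2 for KH 72 h (1), 5 for KH 144 h (2), of which 3 higher and 2 lower, 3 for KH 144 h against 72 h (0), 2 for DNMT3ABKO 72 h (5), 4 for DNMT3ABKO 144 h against 72 h (2) and 5 between lines at 72 h (0). A minimum change of 0.5 left 0 for KH 72 h and KH 144 h, 0 for DNMT3ABKO 72 h, 3 for DNMT3ABKO 144 h, 0 for DNMT3ABKO 144 h against 72 h, 0 between lines at 144 h and 1 for the difference in the 144 h response. With 1 library left out the counts ranged from 0 to 2 for KH 72 h, 1 to 3 for KH 144 h, 3 to 5 and 5 to 6 for DNMT3ABKO 72 h and 144 h, 1 to 1 for DNMT3ABKO 144 h against 72 h, 0 to 1, 0 to 0 and 2 to 3 between lines at 0, 72 and 144 h, and 1 to 4 for the difference in the 144 h response. They were 0 throughout for KH 144 h against 72 h and for the 72 h difference in response.

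In the labels the replicates share only a number, whereas the study reports that the time points of each biological replicate were handled in parallel. The correlation of replicate differences between times was -0.06, 0.086 and 0.049 for the KH line, and for DNMT3ABKO it was -0.104, 0.1 and -0.071. Between the lines it was 0.336 at 0 h, -0.064 at 72 h and 0.039 at 144 h. Not every pair was over 0.1, so the main fit did not pair the libraries by number. Pairing by number was tried as the replicate block. With the replicate block the count was 0 for KH 72 h (1), 1 for KH 144 h (2) and 1 for the difference in the 144 h response (3), where Atp6v1d (limma adjusted p = 0.0751) and Atp6v1e1 (0.0581) were not called, and the other 8 counts were within 1.5 times.

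Of the single values of the members under these settings and the sums, 915 stayed on their side of the threshold with no called value changing sign, 77 lost a call and 41 gained one, and the sum of V1 transcripts moved on rescaling to 539 and 579 TPM in KH cells at 72 h and 144 h and to 566, 567 and 686 TPM in DNMT3ABKO cells. The read depth is unknown, and 2 libraries per group limit the precision.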
